A study of Mus musculus with 6 samples.

Results

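The clustered protocadherin locus of the mouse was examined at 468 promoter array probes, of 174276 probes kept on the whole array. A probe was counted as a member when it lay in a window of chromosome 18 (mm9 build) that holds the alpha, beta and gamma protocadherin clusters in that order, and the probes found spanned chr18:37088786-37979422. The position rule used no measured value, though it was chosen with earlier results of these data known. The array files name no gene for these probes, so membership rests on position alone. The array carried adipose DNA of 32-week-old female C57BL/6J offspring. The 3 LC mice came from dams given a low chromium diet through gestation and lactation and ate control diet after weaning, whereas the 3 CC mice and their dams had the control diet throughout. Each mouse had 1 array, on which immunoprecipitated methylated DNA (MeDIP) was labeled with Cy5 and unenriched input DNA with Cy3. Whole adipose tissue was used, so a change within cells and a change in the mix of cells cannot be told apart. The study's methods describe 1 female pup per litter for a group, which would place the mice of a group in separate litters. The cell types of the tissue could not be checked, because these files hold no gene expression.

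Clustered protocadherins are cadherin-family proteins of the cell surface, best known for giving neurons distinct identities and for like-to-like adhesion between cells. In the alpha and gamma clusters a row of variable exons, each behind a promoter of its own, is spliced to shared constant exons, whereas each beta gene is a single exon. A cell uses few of these promoters, the factor CTCF binds at many of them, and DNA methylation set by Dnmt3b is known to keep promoters of the clusters silent. MeDIP pulls down DNA fragments that carry methylated cytosine, so a high ratio of MeDIP to input marks a methylated stretch. The ratio also depends on how many CpG sites a fragment holds and on how brightly a probe hybridizes.

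The probes fell into runs, called regions here, in which neighboring probes started at most 500 bp apart. There were 66 regions over 890.6 kb, and 60 of them held at least 3 probes and were tested. The other 6 regions, all in the gamma cluster, held fewer. Splitting at the widest gaps gave 3 blocks. The alpha block, chr18:37088786-37303991, had 14 regions and 114 probes. The beta block, chr18:37423352-37678488, had 22 regions and 171 probes. The gamma block, chr18:37797880-37979422, had 30 regions and 183 probes, of which 24 regions had at least 3 probes. Gaps of 119.4 kb separated alpha from beta and beta from gamma. Regions are numbered by position within their block. For orientation, a RefSeq gene table of another build (GRCm38.p6) lists 14 Pcdha, 22 Pcdhb and 22 Pcdhg genes, with Slc25a2, Taf7 and Gm8242 between the beta and gamma genes. Because that build differs from mm9, no region was paired with a gene.

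Regions were short and alike in layout. Their median width was 1700 bp in alpha, 1657 bp in beta and 1621 bp in gamma, and the median spacing of probe starts was 210 bp. Each block ended with a stretch apart from the rest. The last 2 alpha regions followed a gap of 68.2 kb, the last 3 gamma regions a gap of 39.0 kb, and the last 14 beta regions a gap of 43.8 kb.

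Probes of the locus were longer and dimmer than those elsewhere. Probe length on this design runs from 45 to 60 bases, and 60-base probes made up 34.2% of the locus against 13.2% of the array. Conversely, 45-base probes made up 25.4% of the locus against 49.9% of the array. Input signal was taken here as raw median intensity less median background. Its median over the locus was 42.8, 77.5 and 51.0 on LC arrays 1, 2 and 3, and 111, 153 and 146.5 on CC arrays 1, 2 and 3. The CC arrays were brighter in input on all 3 arrays, in the locus as on the whole array (105.5, 169 and 126 for LC, 240, 334 and 314 for CC). Input was well above background at 69.2% to 80.8% of locus probes on the LC arrays and at 88.9% to 91.7% on the CC arrays. The number that follows the barcode of each array was 1 for all LC arrays and 3 for all CC arrays, and was read as slide position. Group and position so read cannot be told apart. The array of CC replicate 3 was scanned at a MeDIP detector voltage of 306 V against 279 V on the others.

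Over probes of all lengths, MeDIP signal was detected at fewer protocadherin probes than elsewhere. It signal was well above background on all 6 arrays at 251 of the 468 probes, or 53.6%, against 74.2% of the array. MeDIP was above background on no LC array at 207 probes (44.2%) and on no CC array at 210 probes (44.9%), and at such probes the MeDIP level is only an upper bound. Of the 318 locus probes whose input was well above background on all 6 arrays, 231 (72.6%) had MeDIP signal on all 6 arrays, against 81.8% in the rest of the array. Single arrays ranged from 73.6% to 74.8% in the locus and from 82.4% to 83.8% elsewhere, so the ranges did not overlap. Within the locus LC arrays ran from 74.2% to 74.8% and CC arrays from 73.6% to 74.8%. By probe length the difference was uneven. Of input-detected probes, MeDIP was detected at 91.2% in the locus and 94.5% elsewhere for 45 bases, at 71.0% and 78.3% for 46 to 52 bases and at 58.3% and 59.6% for 53 to 59 bases. At 60 bases the locus had the larger share, 51.0% against 38.8%. The pooled shares thus also carry the larger part of long probes in the locus.

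The detected share differed within blocks. All 13 input-detected probes of the last 2 alpha regions had MeDIP signal on every array, compared with 40 of 56 (71.4%) in the 12 alpha regions before the gap. In gamma the last 3 regions had 21 of 24 (87.5%), and the regions before them 73 of 110 (66.4%). In beta the shares were 76.1% before the gap and 71.0% after it. These are descriptions with no test over mice. The end stretches were also richer in 45-base probes, which made up 9 of the 13 input-detected probes in alpha against 19 of 56 before the gap, and 16 of 24 in gamma against 41 of 110. Among 45-base probes, MeDIP was detected at 9 of 9 after the alpha gap and 17 of 19 before it, and at 15 of 16 after the gamma gap and 35 of 41 before it. Among longer probes the counts were 4 of 4 and 23 of 37 in alpha, and 6 of 8 and 38 of 69 in gamma.

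Levels are given as log2 of MeDIP over input relative to the median probe of the same array, averaged over the probes of a region. A value of 0 is the middle probe of the array and not an absence of methylation. Averaged over its 14 regions, the alpha block stood at -0.44, -0.47 and -0.42 on LC arrays 1, 2 and 3 and at -0.60, -0.46 and -0.48 on CC arrays 1, 2 and 3. The beta block stood at -0.25, -0.43 and -0.35 in LC and at -0.52, -0.46 and -0.47 in CC. The gamma block stood at -0.40, -0.42 and -0.39 in LC and at -0.52, -0.47 and -0.49 in CC. All 3 blocks were therefore below the regions outside the locus on the same array in all 6 cases, where the mean ran from -0.26 to -0.23, but under loess normalization within arrays the 3 block means turned to 0.00083, 0.15 and 0.061. Regions of chromosome 18 outside the locus averaged -0.17. The order of the blocks was not resolved, because their values overlapped between arrays.

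**Figure D1:**
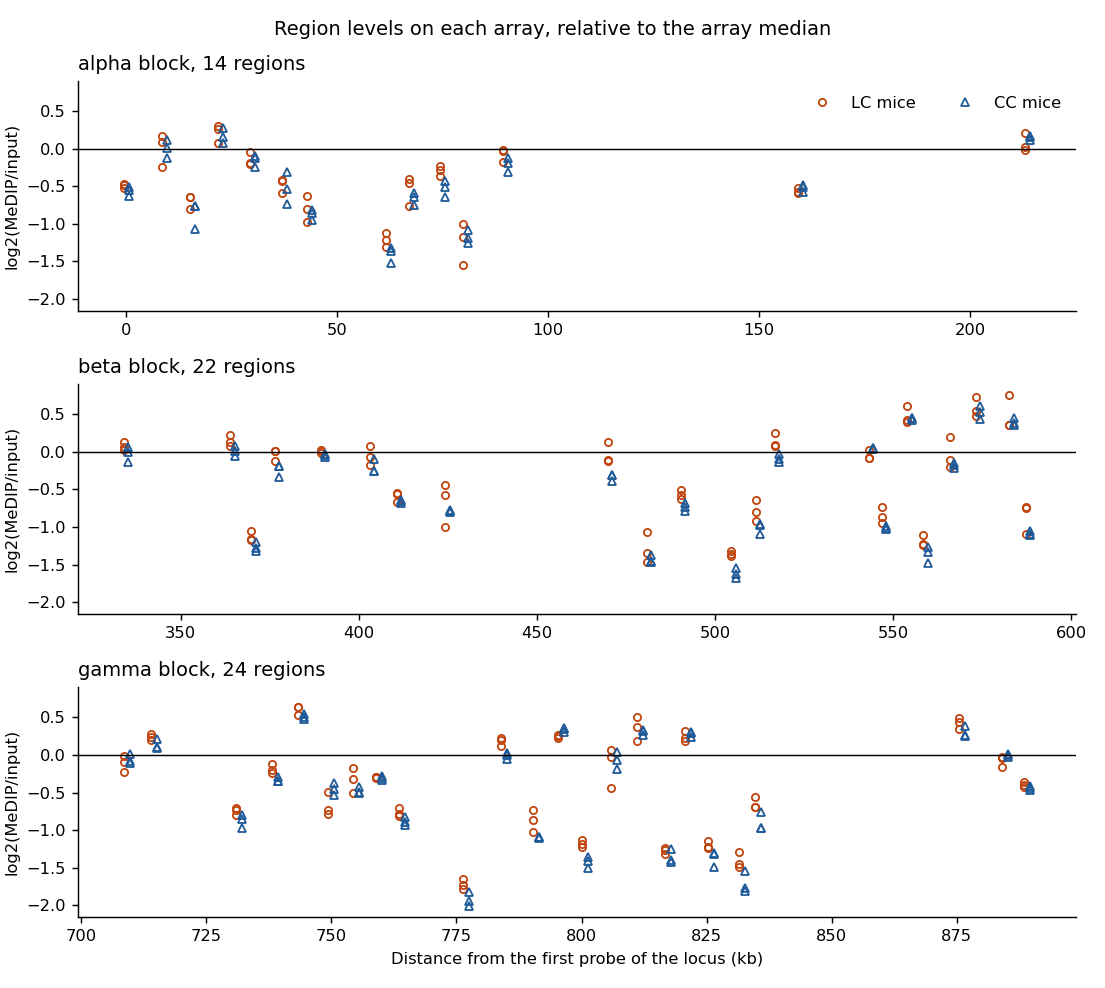
Mean log2 ratio of MeDIP to input of each region with at least 3 probes (y axis, relative to the array median) against distance from the first probe of the locus in kb (x axis), with 3 LC mice as circles and 3 CC mice as triangles. Levels ran from -1.82 in gamma region 11 to 0.56 in gamma region 6 and beta region 20, and neighboring regions often stood far apart.

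Against the array median, 40 of the 60 regions were lower (limma, adjusted p under 0.05), where 55.4% of all regions of the array were, and 13 were higher, where 35.6% were. The remaining 7 did not pass. With loess normalization the split was 23 lower and 31 higher, and with normexp background correction 29 lower and 25 higher, so the count depends on how brightness was treated. The median region level was -0.41 in the locus and -0.15 over all regions. Loess moved the median over all regions to -0.02 and that of the locus to 0.09, and normexp moved them to 0.02 and -0.02. In alpha 11 of 14 regions were lower and 2 higher, in beta 14 of 22 and 4, and in gamma 15 of 24 and 7. Of the 60 regions, 35 were below 0 on all 6 arrays and 10 were above 0 on all 6. The same counts over all regions are not given here, so they are not set against the array.

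Lower regions were more frequent where probes were longer, in the locus as on the array. Among regions with a mean probe length under 50 bases, 3 of 7 in the locus were lower (42.9%), against 43.9% on the array. From 50 to under 53 bases the locus share was 55.6% against 73.4%, and from 53 to 60 bases it was 77.1% against 82.8%. Within each class of length the locus thus held no larger share of lower regions than the array.

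Single probes of equal length showed where the locus and the array differed. The 119 probes of 45 bases averaged 0.19 over the arrays, against 0.30 for the rest of the array. At this length alpha stood at -0.22 over 30 probes, beta at 0.30 and gamma at 0.35. On single arrays the 45-base alpha probes ran from -0.37 to -0.15, below the range of 0.17 to 0.39 of other 45-base probes. Within alpha, the 19 probes of 45 bases before the widest gap averaged -0.60, -0.51 and -0.39 on the LC arrays and -0.44, -0.43 and -0.44 on the CC arrays. The 11 after the gap averaged 0.02, 0.10 and 0.13 in LC and 0.35, 0.35 and 0.26 in CC. The short probes of the long alpha run were thus low on all 6 arrays and those of its end stretch were not. Alpha was not low at every length. It averaged -0.95 at 46 to 52 bases against -0.44 for the rest of the array, but -0.14 against -0.95 at 53 to 59 bases and -0.59 against -1.15 at 60 bases. At 60 bases the locus as a whole was higher than the rest of the array, at -0.71 against -1.15. Only 51 of the 160 locus probes of 60 bases had input above background on all 6 arrays, so this comparison rests largely on dim spots.

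**Figure D2:**
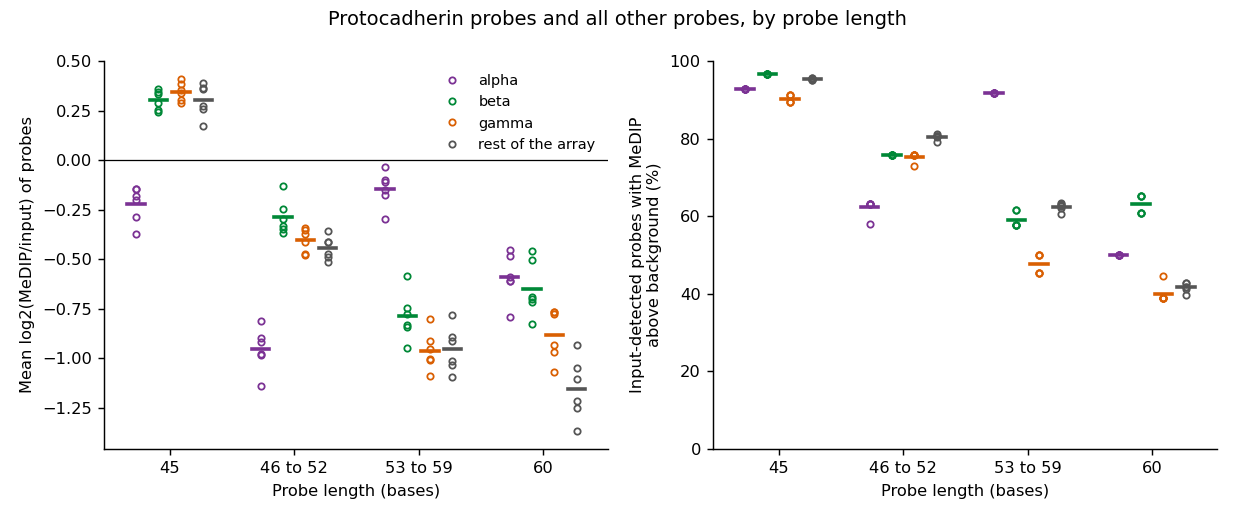
Left, mean log2 ratio of MeDIP to input of probes (y axis) by probe length in bases (x axis) for the alpha, beta and gamma blocks and all other probes. Right, percent of input-detected probes with MeDIP above background. Circles are the 6 arrays and bars their mean, and the 45-base alpha probes, at -0.22, lie below the other 3 sets.

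In each of the 2 lowest regions of each block, at least 4 probes had no MeDIP signal above background on any array. Gamma region 11 (chr18:37865637-37867274, 8 probes) had the lowest level among the regions with at least 3 probes, at -1.79, -1.73 and -1.65 in LC and -2.02, -1.83 and -1.94 in CC. MeDIP signal was above background on no array of either group at 7 of its 8 probes, and its remaining probe reached 1.52, so its level is an upper bound. Gamma region 26 (chr18:37920815-37921898, 6 probes) was next lowest in its block, at -1.49, -1.45 and -1.30 in LC and -1.81, -1.55 and -1.78 in CC, with 5 of 6 probes undetected in MeDIP.

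In beta, region 12 (chr18:37593980-37595709, 8 probes) was lowest, at -1.32, -1.39 and -1.36 in LC and -1.62, -1.55 and -1.68 in CC. Input was above background on some array of each group at all 8 of its probes, and MeDIP on no array of either group at 4. Beta region 10 (chr18:37570190-37571637, 7 probes) had -1.07, -1.46 and -1.35 in LC and -1.47, -1.37 and -1.46 in CC, with 6 probes undetected in MeDIP. In alpha the lowest were region 8 (chr18:37150821-37152540, 8 probes), at -1.22, -1.12 and -1.31 in LC and -1.52, -1.36 and -1.32 in CC, and region 11 (chr18:37169216-37170975, 9 probes), at -1.0, -1.54 and -1.17 in LC and -1.26, -1.19 and -1.08 in CC. MeDIP was undetected at 5 probes of the former and 6 of the latter, in which LC replicate 2 stood apart and the groups overlapped.

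The regions named as the highest of each block, among those with at least 3 probes, had MeDIP signal on all 6 arrays at 6 or more of their 8 or 9 probes. Gamma region 6 (chr18:37832702-37834463, 9 probes) stood at 0.53, 0.64 and 0.64 in LC and 0.48, 0.55 and 0.51 in CC, with MeDIP above background on all 6 arrays at 8 probes. Gamma region 28 (chr18:37964770-37966522, 9 probes), the first after the widest gamma gap, had 0.50, 0.35 and 0.44 in LC and 0.27, 0.25 and 0.38 in CC. Beta region 20 (chr18:37662641-37664314, 8 probes) had 0.74, 0.55 and 0.48 in LC and 0.43, 0.53 and 0.61 in CC. Its highest probe reached 2.88, the highest of the locus.

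Beta region 17 (chr18:37643413-37644995, 8 probes) had 0.61, 0.40 and 0.42 in LC and 0.43, 0.46 and 0.46 in CC. In alpha the highest were region 4 (chr18:37111043-37112841, 8 probes), at 0.08, 0.26 and 0.30 in LC and 0.08, 0.28 and 0.16 in CC, and region 14 (chr18:37302413-37303991, 8 probes), at 0.03, -0.02 and 0.21 in LC and 0.15, 0.17 and 0.12 in CC. In each of these 3 regions the LC and CC mice overlapped. The 6 regions named as the highest of their blocks kept a level above 0 under all alternatives run for single region levels. They were not the highest of the whole locus, because some other beta and gamma regions stood above both alpha regions.

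The ends of the blocks did not share a level. Alpha region 1 (chr18:37088786-37090332) averaged -0.53 ± 0.02 (SE, 6 arrays), beta region 1 (chr18:37423352-37424988) 0.02 ± 0.03 and gamma region 1 (chr18:37797880-37799058) -0.09 ± 0.03. Beta region 22 (chr18:37676712-37678488), the last of its block, averaged -0.97 ± 0.04, and gamma region 30 (chr18:37977901-37979422) -0.42 ± 0.02. Beta region 1 did not differ from the array median (limma), and gamma region 1 turned positive under 4 of the alternatives. The regions with the most probes were 11 regions of 9 probes each, and their levels ran from -1.21 to 0.56.

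**Figure D3:**
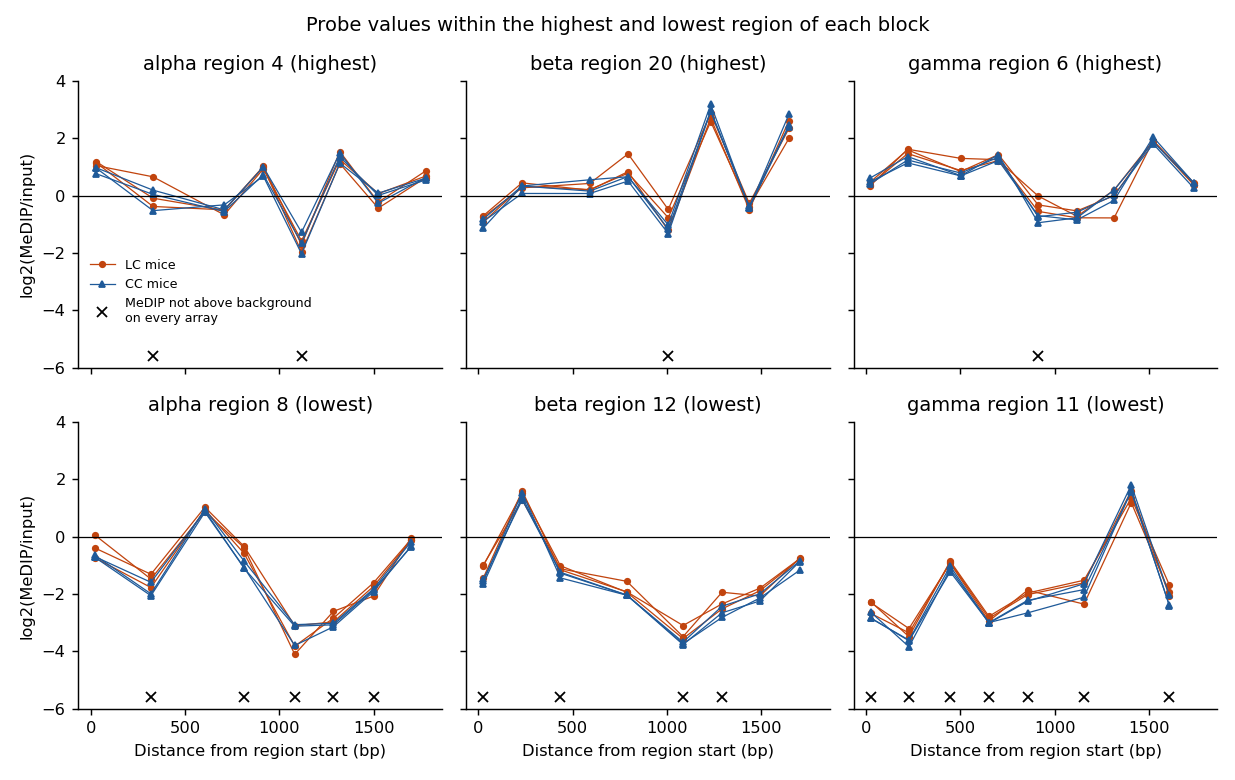
Log2 ratio of MeDIP to input of each probe (y axis) against distance from the region start in bp (x axis) in the highest and lowest region of each block, with 1 line for each LC (circles) and CC (triangles) mouse. Crosses mark probes whose MeDIP signal was not above background on all 6 arrays, 1 or 2 in each of the upper regions and 4 to 7 in the lower ones.

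Neighboring probes of a region often differed widely. The SD of single probes within a region was 1.38, the SD between region means, each over several probes and so narrower by averaging, 0.60, and the SD between mice of a region mean 0.12 in LC and 0.08 in CC. The corresponding values on the whole array were 1.38 within and 0.75 between regions. The median range from the lowest to the highest probe of a region was 3.86, or 3.67 on the array. In 43 of the 60 regions at least 1 probe was above 1 and another below -1, as in 63.9% of array regions. Neighboring probes correlated at 0.10 (402 pairs, which share their arrays), against 0.17 elsewhere. Over the locus, 81 probes (17.3%, array 20.1%) were above 1 and 160 (34.2%, array 26.7%) were below -1. The region pattern recurred between mice, with array correlations over the 60 regions of 0.99 among CC mice (0.986 to 0.991), 0.95 to 0.97 among LC mice and 0.95 to 0.98 between groups. All arrays share the same probes, whose lengths and base composition enter each correlation.

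Inside regions the signal was uneven along the chromosome. Of 57 regions with at least 6 probes, the low-coordinate side was lower than the high-coordinate side in 28 (limma, adjusted p under 0.05; 46.4% on the array) and higher in 24 (44.8% on the array), so an uneven profile was as frequent as elsewhere. The median size of the difference between sides was 0.94. In alpha 4 regions were lower and 9 higher on the low-coordinate side, in beta 10 and 8, and in gamma 14 and 7. With loess the split of the locus was 19 lower and 35 higher, and with the authors' processed values 35 lower and 18 higher. Alpha region 14, the last of its block, had the widest difference, at -2.72, and alpha region 13 before it had -1.55. Alpha region 1 ran the other way, at 2.27. In beta, region 5 had -2.32 and region 11 had 2.16.

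Averaged over regions in steps of 300 bp from the region start, alpha alternated between low and middling steps. It stood at -1.07 in the first step, 0.03 and 0.04 in the next steps, -0.93 from 900 to 1200 bp, 0.02 from 1200 to 1500 bp and -1.04 from 1500 to 1800 bp. All 6 arrays were below -0.78 in the low steps and above -0.12 in the others. Each step held 15 to 24 probes of 12 to 14 regions, and mean probe length fell from 56.9 bases in the first step to 46.9 in the last. Beta was flatter, between -0.71 and -0.06, and gamma peaked at 0.10 from 1200 to 1500 bp. A step counts from the lower coordinate and not from a transcription start.

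The comparison of LC with CC asks whether low chromium in the dams left a methylation mark in adult offspring, here at the protocadherin promoters. Of the 60 regions, 11 were higher in LC (limma, adjusted p under 0.05; 10.2% of all array regions were) and 0 were lower (8.84% were). Without adjustment (p under 0.05) 1 region was lower, where 17.2% of array regions were. The median difference was 0.12 in the locus and 0.02 over all regions, and 50 of 60 differences were above 0. No share above 0 over all regions is given here. Under 50 bases of mean probe length the median was -0.04 both in the locus and in the rest of the array. From 50 to under 53 bases it was 0.12 and 0.09, and from 53 to 60 bases 0.13 and 0.19. The 11 differences were small, from 0.19 to 0.30, and in all 11 the LC mice lay above the CC mice. In all, 22 locus regions had such groups without overlap (24.1% on the array) and 3 had the LC mice below the CC mice (20.5%). The called regions were spread over the locus, with 1 in alpha, 4 in beta and 6 in gamma. Of the 11, 9 were below the array median in level. Replicates 1 of both groups had the same scan time, as did replicates 2. Arrays of the same scan time are called a slide here, and slide identity itself was not checked. Within the first slide the median difference over the 60 regions was 0.21 and 50 were above 0, and within the second it was 0.03 and 35 were above 0. All 11 called regions were higher in LC within both slides, by 0.16 to 0.51 and by 0.07 to 0.36. With the slide as a block none passed (10 higher without adjustment). Each array of replicate 3 was alone in its slide, so that contrast rests on replicates 1 and 2. LC and CC arrays with the same number also shared a scan day. Between the replicates 3, scanned at different times, the median difference was 0.10, with 48 of 60 above 0. The 11 called regions were higher there by 0.06 to 0.48. With the scan day as a block, which is also a block on replicate number, 0 regions passed in either direction (21 higher without adjustment).

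The count changed with the treatment of brightness and of probe length. Higher and lower counts were 0 and 1 with loess (6.37% of array regions lower), and 0 and 0 with the mean trend on probe length removed (0.04% lower). They were 5 and 2 with normexp (6.76% lower), and 1 and 7 with the authors' processed values (9.26% lower). Differences above 0 numbered 29, 28, 35 and 22 of 60 under these alternatives. With probes of well-detected input alone 16 were higher and 1 lower (17.1% higher and 10.0% lower on the array). Leaving out 1 array changed the count of higher regions each time. It was 7 without LC replicate 1, 17 without LC replicate 2 and 5 without LC replicate 3. It was 0 without CC replicate 1, 2 without CC replicate 2 and 0 without CC replicate 3.

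**Figure D4:**
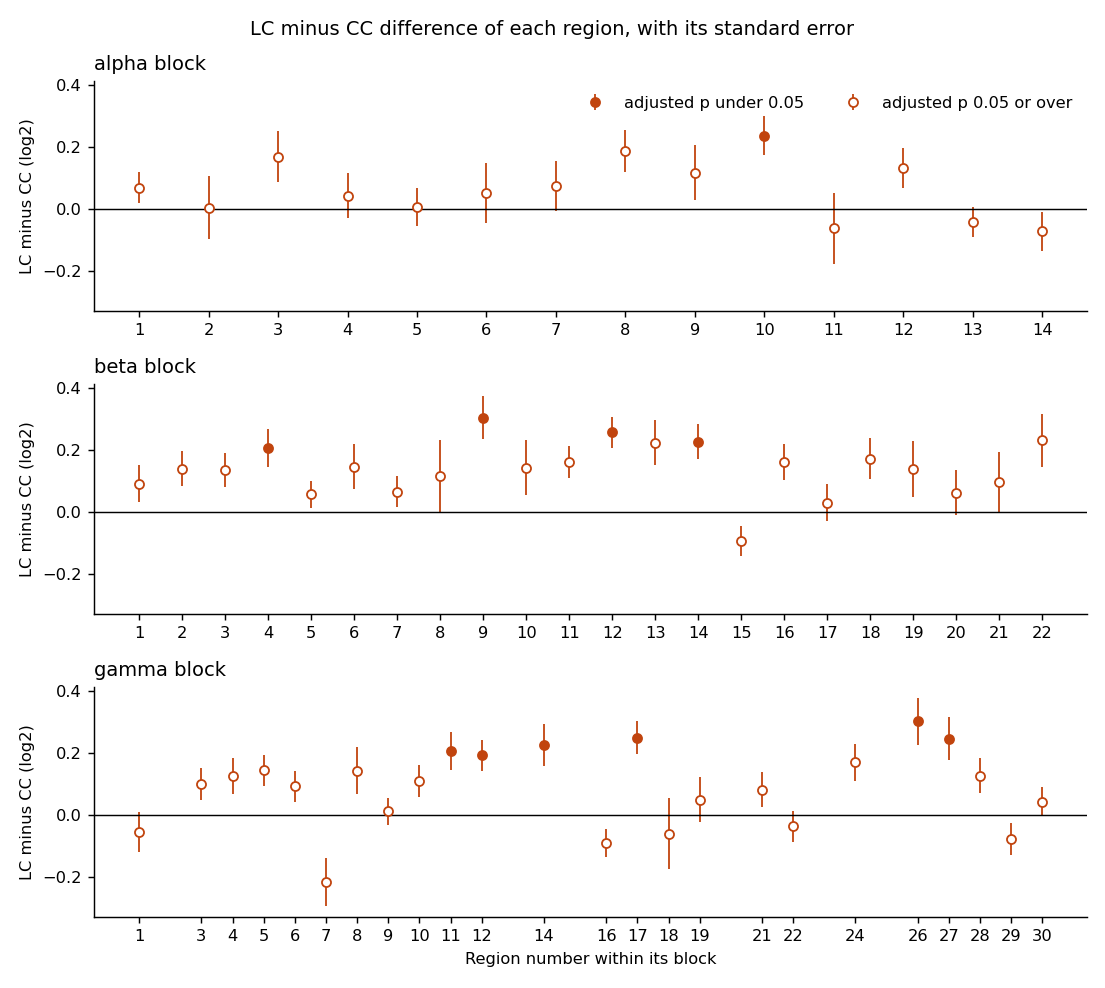
LC minus CC difference of log2 ratio (y axis) for each of 60 regions by number within its block (x axis), with the standard error as bars (3 mice a group). Filled points are the 11 regions with an adjusted p under 0.05, all between 0.19 and 0.30. Under loess normalization 0 regions were called higher and 1 lower.

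Regions higher in LC were more frequent on the array where probes were longer, and within classes of mean probe length the locus share was no larger than the array's. Under 50 bases 2.76% of array regions were higher and 0 of 7 in the locus, from 50 to under 53 bases 16.8% and 16.7% (3 of 18), and from 53 to 60 bases 35.1% and 22.9% (8 of 35). Over the middle 50 percent of the locus regions in length, from 51.5 to 54.5 bases, 25.2% of array regions were higher and 6.67% of the locus (2 of 30). The rest of chromosome 18 had 8.82% higher and 9.42% lower. The relation between the difference and mean probe length, r = 0.36 over the 60 regions and 0.64 over the array, is across regions that share arrays and is a description.

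The 3 largest differences were in beta and gamma. Beta region 9 (chr18:37559209-37560829, 7 probes) had levels of 0.13, -0.10 and -0.12 in LC and -0.39, -0.31 and -0.31 in CC, a difference of 0.30 ± 0.07 (SE, limma adjusted p = 0.0234). Gamma region 26, the next to lowest of its block, differed by 0.30 ± 0.08 (adjusted p = 0.0301). Beta region 12, the lowest of its block, differed by 0.26 ± 0.05 (adjusted p = 0.0194, the smallest of the locus). In each of the 3 the highest CC mouse was below the lowest LC mouse. The differences stayed above 0 for these 3 regions under all alternatives run for single regions, and none of the 3 passed with the trend on probe length removed.

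The other called regions were alpha region 10, beta regions 4 and 14 and gamma regions 11, 12, 14, 17 and 27, with differences of 0.19 to 0.25. Alpha region 10 (chr18:37163674-37165273) had -0.36, -0.29 and -0.24 in LC and -0.51, -0.65 and -0.43 in CC, and turned to -0.16 (limma adjusted p = 0.0160) with the authors' processed values. Gamma region 17 (chr18:37889533-37891144) had -1.13, -1.18 and -1.22 in LC and -1.51, -1.41 and -1.36 in CC. Neither set overlapped between groups. No region was called lower, and the largest differences in that direction were -0.22 ± 0.08 in gamma region 7 (chr18:37838813-37840433, limma adjusted p = 0.0749), -0.09 ± 0.05 in beta region 15 (chr18:37632561-37633694, adjusted p = 0.176) and -0.09 ± 0.04 in gamma region 16 (chr18:37884662-37885762, adjusted p = 0.166). In gamma region 7 the groups overlapped, whereas in the other 2 all LC mice were below all CC mice.

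The channels were then compared on their own, each after quantile normalization over arrays. In MeDIP no locus region differed (0 of 60 in either direction, and 0% of array regions by limma); without adjustment 2 were lower (5.46% of array regions) and 7 higher (5.43%). In input 0 regions were lower (7.12% on the array; 8 without adjustment, where 15.6% were) and 2 were higher in LC (7.0%). These were gamma region 7, by 0.32 ± 0.08 (limma adjusted p = 0.0348), and gamma region 16, by 0.21 ± 0.04 (adjusted p = 0.0159), the same regions that had the lowest and the third lowest difference of the ratio. In gamma region 7 the log2 input was 8.0, 7.63 and 7.95 in LC and 7.53, 7.52 and 7.58 in CC, so that no mice overlapped, and log2 MeDIP was 7.15, 7.14 and 7.12 against 7.10, 7.24 and 7.15.

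Across the 11 regions called higher, input was lower in LC in all 11, with a median difference of -0.11 and a range of -0.17 to -0.01, though none passed for input alone. MeDIP differed by a median of 0.03 (-0.02 to 0.11). The input difference was the larger one in 9 of the 11. Over the 60 regions the difference of the ratio correlated at -0.83 with that of input and at 0.34 with that of MeDIP. The ratio contains both channels, so these are descriptions.

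**Figure D5:**
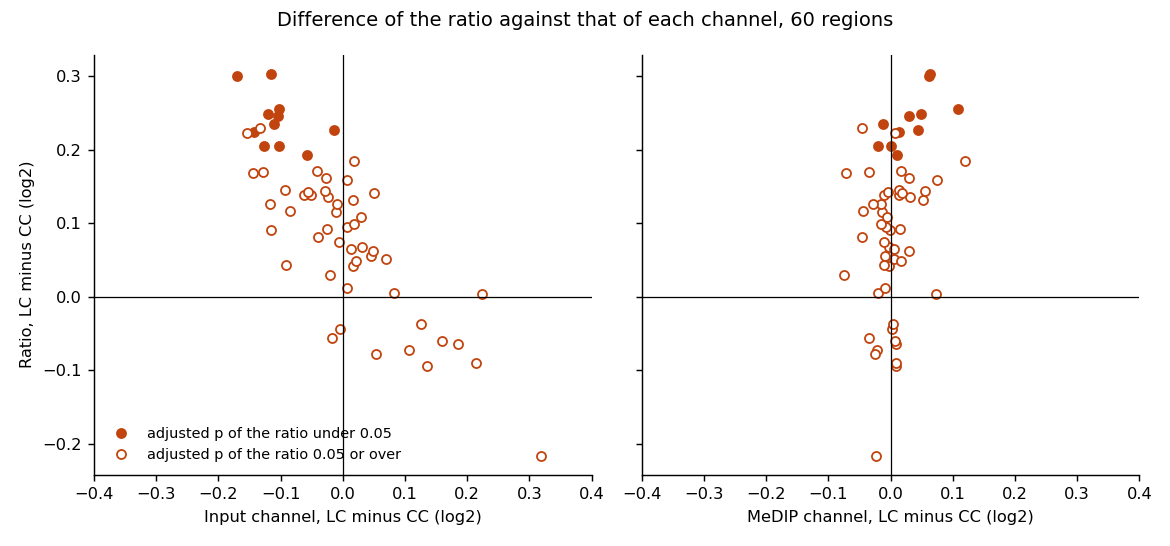
LC minus CC difference of the log2 ratio (y axis) against that of the input channel (left x axis) and of the MeDIP channel (right x axis), both log2, for 60 regions. The 11 filled regions, called higher, all have lower input in LC, and MeDIP differences lie between -0.08 and 0.12 over all 60.

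Probe by probe, 6 of the 468 were lower in LC (limma, adjusted p under 0.05; 4.29% of array probes were) and 11 were higher (1.75% were). The 6 lower probes were 5 of 45 bases and 1 of 50, in 6 regions, with input and MeDIP above background on all 6 arrays and differences of -0.82 to -0.39. Probes called lower on the whole array were alike. Of those, 91.2% were of 45 bases, 96.4% had input on all 6 arrays and 93.1% had MeDIP on all 6. The lowest of the 6 locus probes was in gamma region 29 (chr18:37973444-37975183), with -1.25, -0.69 and -0.73 in LC and -0.13, -0.02 and -0.05 in CC. A probe of alpha region 14 had 0.92, 1.38 and 1.5 in LC and 1.89, 1.96 and 1.93 in CC, so that a strongly enriched probe was less so in LC.

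The 11 higher probes were of another kind, and on the whole array too the probes called higher were longer than those called lower. Of the 11, 8 were 60 bases long (72.7%, against 45.9% of the probes called higher on the whole array). None was of 45 bases (6.55% on the array), and 10 had MeDIP above background on no array (90.9%, against 62.7%). Input was above background on all 6 arrays at 3 of them (27.3%, against 67.2%). The one with MeDIP signal on all arrays lay in gamma region 28, at 1.66, 1.44 and 1.27 in LC and 0.67, 0.93 and 1.04 in CC. In the 11 regions called higher, MeDIP was on no LC array above background at 47 of 81 probes (58.0%), against 158 of 380 (41.6%) in the regions not called.

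A score along the chromosome, after the sliding-window approach of the study's methods, was set on the difference of group means, with probes and not mice as its units. By a Kolmogorov-Smirnov score of at least 2 at 2 adjacent probes, 3 regions held a peak lower in LC (4.1% on the array) and 3 a peak higher in LC (2.2%). The lower ones were alpha regions 13 and 14 and gamma region 7, and the higher ones alpha region 10 and gamma regions 26 and 28. The alpha pair are the 2 regions after the widest alpha gap, where the region differences themselves were -0.04 ± 0.05 and -0.07 ± 0.06 and did not pass.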

How the data were processed

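MeDIP and input DNA of 6 mice were hybridized to 6 two-color Agilent promoter arrays with no dye swap. The authors deposited Agilent Feature Extraction 11.0.1.1 output, in which the processed intensity of each dye was already background-subtracted and dye-scaled, with raw median intensity beside it. The log10 ratio in the deposited files served only to check direction (r of at least 0.999). The authors' own deposited values, on a log2 scale, were an alternative, and their method is not given in the sources used here beyond normalization. Other deposited columns, flags of 0 or 1 with no scale, marked outliers, saturation and signal well above background.

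The log2 ratio of processed Cy5 over Cy3 was centered on each array's median, leaving out 362 probes that an array flagged as outliers (0 in the locus), and averaged over regions. No locus value was saturated. Tests were fitted by limma 3.58.1 (R 4.3.3) on all 22584 regions or 174276 probes, with Benjamini-Hochberg adjustment over all of them. Kolmogorov-Smirnov scores (scipy 1.17.1) used windows of 750 bp with at least 3 probes and group means. The scripts were tested on simulated data. Arrays have no read depth, and 3 arrays a group limit the precision. Regions named were the 2 highest and 2 lowest of each block, its ends, the 3 largest differences each way (or the next largest, said not to pass) and those with the most probes; the other called regions and single probes were chosen after their values were seen. The members and lists were chosen with earlier results of these data known. Alternatives covered background correction, normalization, filters, region rules, blocks, test and leaving out each array. Locus sequences are not reported here.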

Additional observations from a re-analysis of the deposited data

How the results depend on the processing

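Leaving out 1 array kept 38 to 40 regions below the array median and 12 to 13 above it, with 28 to 29 lower and 24 to 26 higher low-coordinate sides and block means of -0.49 to -0.46 (alpha), -0.44 to -0.39 (beta) and -0.49 to -0.44 (gamma). Loess gave 23 below and 31 above, normexp 25 above. Loess turned the mean of alpha to 0.00083, beta to 0.15 and gamma to 0.061, and normexp moved them to -0.11, -0.0086 and -0.033. The authors' values moved alpha to -0.56. Probes with detected input moved alpha to -0.61, beta to -0.31 and gamma to -0.38 and the sides to 14 lower and 11 higher (fewer regions had 6 such probes). The median over probes moved gamma to -0.37. Where no cause is stated, the cause was not tested.

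Of the 60 region levels, 16 turned sign with loess, 9 with normexp, 8 with the authors' values and 10 with the median over probes. Regions named only for their number of probes were not followed one by one here. Among the other named regions, signs turned in 5: beta region 1 (authors' values -0.25, median over probes -0.18), beta region 9 (normexp 0.14, loess 0.46, detected input 0.25), gamma region 1 (normexp 0.16, loess 0.25, authors' values 0.076, median 0.12), gamma region 7 (loess 0.20, median 0.081) and beta region 15, which lies at 0 (quantile -0.0031, equal deviation -0.0020, median -0.075, and -0.016 to 0.0096 without 1 array, below 0 without LC replicate 2, CC replicate 2 or CC replicate 3). Of all 336 values run for the levels of these other named regions, the 5 included, 307 kept direction and side.

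The LC minus CC counts did not hold. Counts with the slide as a block, for regions and for probes, rest on replicates 1 and 2 alone. Regions higher in LC, 11, became 5 with normexp, 0 with loess, 2 with quantile normalization, 2 with equal median absolute deviation, 1 with the authors' values, 0 with the length trend removed, 4 with the median over probes, 0 with the slide as a block and 0 by the methods' t-test after adjustment (13 unadjusted), and 0 to 17 without 1 array. Regions lower in LC, 0 (8.84% of array regions), became 2 with normexp (6.76%), 1 with loess (6.37%) and 7 with the authors' values (9.26%). They became 1 with detected input (10.0%), 1 with the median, 1 by the unadjusted t-test and 0 to 1 without 1 array. Turned differences were, with normexp, alpha region 10 -0.11, beta region 14 -0.065 and gamma region 12 -0.082; with loess gamma region 11 -0.026; and with the authors' values alpha region 10 -0.16, beta region 14 -0.070, gamma region 12 -0.087, gamma region 14 -0.031, gamma region 17 -0.0023 and gamma region 27 -0.0065.

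Probes lower in LC, 6, became 26 with normexp, 1 with quantile normalization, 28 with the authors' values, 0 with the length trend removed, 0 with the slide as a block, 19 by the unadjusted and 0 by the adjusted t-test, and 0 to 5 without 1 array. Probes higher, 11, became 40 with normexp, 1 with loess, 1 with quantile normalization, 0 with equal deviation, 0 with the length trend removed, 22 with detected input, 0 with the slide as a block, 60 by the unadjusted and 0 by the adjusted t-test, and 0 to 30 without 1 array. Input regions became 2 lower and 4 higher with detected input, and 0 to 2 lower and 0 to 3 higher without 1 array. Kolmogorov-Smirnov peaks became 6 lower and 1 higher with the authors' values, 1 lower with the length trend removed, 0 higher with normexp, 5 higher with windows of 1000 bp, 0 and 0 at a score of at least 3, and 0 to 2 lower and 0 to 4 higher without 1 array.

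The groups share replicate numbers. Deviations of same-numbered arrays correlated at -0.16, 0.11 and -0.0008 over 22584 regions, and 2 of 6 arrays correlated best with their own number. The labels give the number no meaning, but the arrays of a number shared a scan day. With the replicate block, which is thus also a block on scan day, 0 regions were higher or lower in LC (21 and 1 unadjusted), as were 0% of array regions, and 1 probe was lower and 2 higher. The block changed no count of levels or sides. Over the range of mean probe length of the 11 called regions, chosen after seeing the data and holding all 11 by construction, 22.9% of array regions and 11 of 50 locus regions were higher.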

Other observations

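The 6 gamma regions with fewer than 3 probes entered no test. Gamma region 13 (chr18:37878911-37879172), with 2 probes, stood at 1.51, 1.49 and 1.49 in LC and 1.44, 1.58 and 1.57 in CC, above every tested region of the locus. It lies less than 500 bp before gamma region 14, which averaged -0.98, so that the next run of probes was among the low ones. Gamma region 2, a single probe, had 1.15, 1.20 and 1.0 in LC and 0.71, 0.88 and 0.85 in CC. Gamma region 15, also a single probe, had -2.03, -2.21 and -1.93 in LC and -2.50, -2.55 and -2.47 in CC, with MeDIP above background on no array. The first 3 gamma regions, ahead of a gap of 15.4 kb, averaged 0.14 over their 13 probes, and without them the mean of the gamma regions was -0.49.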
